A study of Mus musculus with 2 samples.

Results

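Amh and Amhr2, the genes of anti-Müllerian hormone and of its receptor, were examined in maps of open chromatin from mouse ovary. They were chosen by name, as the hormone and the receptor dedicated to it, and are 2 of the 21853 protein-coding genes of the annotation. The maps come from DNase-seq, in which DNase I cuts DNA that is not wrapped in nucleosomes, so that a pile of cuts marks an open site (a peak) and a protected stretch inside it marks a footprint. There was 1 group, whole ovary of female B6CASTF1/J mice at 36 days of age, an F1 hybrid of C57BL/6J and CAST, with 2 biological replicates that were each taken as 1 animal. The labels number the females differently but give both the same donor entry, which was read as the strain, so n = 2 rests on that reading. With 1 group there is no condition to compare, so all values are a description of these libraries and no test was run.

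Anti-Müllerian hormone is a secreted ligand of the TGF-beta family. In the male fetus it comes from Sertoli cells and makes the Müllerian ducts regress. In the ovary it comes from granulosa cells of growing follicles, where it restrains the recruitment of primordial follicles and lowers the response to follicle-stimulating hormone. Its receptor AMHR2 is a type II receptor kinase on granulosa cells and other gonadal cells. It binds the hormone, recruits a type I receptor of the BMP branch (ACVR1, BMPR1A or BMPR1B), and the SMAD proteins of that branch then carry the signal into the nucleus.

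Amh (ENSMUSG00000035262.5) lies on the plus strand of chromosome 10 from 80805243 to 80807648 (mm10), a gene of 2406 bp with 5 exons and 1 annotated transcript. Amhr2 (ENSMUSG00000023047.11) lies on the plus strand of chromosome 15 from 102445367 to 102454633, a gene of 9267 bp with 11 exons and 5 transcripts. A peak was given to a gene when its centre lay in the gene or its nearest protein-coding start site was the gene's, and it counted as a promoter peak when any base lay within 500 bp of a coding start. Amh had 4 peaks in replicate 1 and 3 in replicate 2, of which 3 were shared, meaning that they overlapped. Amhr2 had 4 peaks in replicate 1 and 6 in replicate 2, of which 4 were shared. The median protein-coding gene had 3 shared peaks, and 50.7% of genes had as many as Amh or more, against 39.6% for Amhr2.

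The sequences of the sites with the most to show follow, read 5′ to 3′ on the plus strand of GRCm38.p6 (RefSeq), which is the same build. Capitals mark the bases that lay in a footprint in both libraries. The first is the site upstream of Amhr2, the highest peak of either gene, followed by the 2 sites inside Amh and by the stretch just before the Amhr2 start.
Amhr2 upstream site, chr15:102442601-102442800: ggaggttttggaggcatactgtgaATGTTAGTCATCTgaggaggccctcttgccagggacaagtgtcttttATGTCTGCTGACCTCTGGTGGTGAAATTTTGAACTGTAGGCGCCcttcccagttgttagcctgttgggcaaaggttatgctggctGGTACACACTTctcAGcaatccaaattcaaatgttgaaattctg
Amh exon 2 site, chr10:80805981-80806160: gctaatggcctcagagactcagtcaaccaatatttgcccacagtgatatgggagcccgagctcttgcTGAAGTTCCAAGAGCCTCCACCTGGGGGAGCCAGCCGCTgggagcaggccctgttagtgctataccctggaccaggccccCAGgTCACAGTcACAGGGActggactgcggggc
Amh exon 5 site, chr10:80807341-80807600: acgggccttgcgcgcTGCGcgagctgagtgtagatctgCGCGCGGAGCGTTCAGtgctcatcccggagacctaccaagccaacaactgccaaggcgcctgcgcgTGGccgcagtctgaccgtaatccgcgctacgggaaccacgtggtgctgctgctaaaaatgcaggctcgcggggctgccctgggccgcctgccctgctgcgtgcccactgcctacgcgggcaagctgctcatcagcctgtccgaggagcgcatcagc
Amhr2 promoter before the start, chr15:102445117-102445366: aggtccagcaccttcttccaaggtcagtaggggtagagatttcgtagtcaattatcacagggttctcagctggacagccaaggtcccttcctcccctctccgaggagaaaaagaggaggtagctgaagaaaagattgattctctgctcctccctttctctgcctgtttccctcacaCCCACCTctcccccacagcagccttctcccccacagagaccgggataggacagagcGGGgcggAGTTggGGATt
The long run of capitals in the first 2 sequences is the part protected in both ovaries, and the other 2 hold shorter ones. The 3 open sites differ in base composition. GC content was 47.0% at the Amhr2 upstream site, which holds 1 CpG, 60.6% at the Amh exon 2 site with 3 CpGs, and 66.9% at the Amh exon 5 site with 27 CpGs.

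Amh was open at its promoter in both ovaries, but weakly, and its body held the higher peaks. The promoter peak reached from 80804901 to 80805240 in replicate 1, ending 3 bp before the start site, with a deposited peak value of 1.59. In replicate 2 it reached from 80804986 to 80805100, with a value of 0.857. The peak in replicate 2 was thus the narrower and the lower, and it was absent from the shorter, stricter list of peaks that the authors deposited for that library. The lowest deposited q-value (false discovery rate per base) at the promoter was 6.63e-06 in replicate 1 and 0.0164 in replicate 2. In replicate 1 the listed q-values ran past the called edge to 4 bp after the start site, with 0.0403 at the start itself. The peak held 4 footprints in replicate 1 and 0 in replicate 2. The mean promoter value was 1.22 ± 0.52 (SD, n = 2). In whole tissue, fewer cells with an open site and less opening in each cell cannot be told apart.

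Both peaks inside Amh were present in both libraries and both were centred in coding exons. The exon 2 peak had a value of 3.78 in replicate 1 (80805981 to 80806160) and 2.61 in replicate 2 (80805961 to 80806160), a mean of 3.19 ± 0.82 (SD, n = 2). The exon 5 peak spanned the same bases in both libraries, 80807341 to 80807600, with a value of 3.68 in replicate 1 and 2.22 in replicate 2, a mean of 2.95 ± 1.03. Peaks of both genes that were in the stricter list had edges on a regular grid, so equal edges are not exact to the base. In replicate 1 the listed q-values reached beyond this peak on both sides, from 1684 to 2461 bp after the start site. Exon 5 is the last exon and encodes the C-terminal part of the hormone, which binds the receptor. The lowest q-value was 1.40e-15 in replicate 1 and 7.74e-10 in replicate 2 at exon 2, and 7.59e-18 in replicate 1 and 5.23e-09 in replicate 2 at exon 5. In each ovary both body peaks were higher than the promoter peak. Of all peaks, 13.3% in replicate 1 and 11.3% in replicate 2 were higher than the exon 2 peak, and 13.6% in each library were higher than the exon 5 peak, against 28.1% in replicate 1 and 37.4% in replicate 2 for the promoter peak.

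The ratio of the exon 2 peak to the promoter peak of Amh was at least 2.38 in each library. Among 8264 genes with both a promoter peak and another shared peak in the gene, 18.0% had the other peak as the higher one in both libraries, and 5.25% had a ratio as high as that of Amh. Amh is also a short gene with 2 shared peaks outside its promoter, and among 2386 protein-coding genes of at most 3000 bp, 1.84% held at least 2. These limits of length and number were not planned and fit Amh itself, so this share is no independent measure of rarity. Of the shared peaks, 2 of the 3 of Amh and 0 of the 4 of Amhr2 were centred in coding sequence in both libraries, against 4.24% of all 79447 one-to-one shared peaks.

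One further peak was given to Amh in replicate 1 alone. It lay from 80802687 to 80802887, inside the neighbouring gene Sf3a2, with a value of 1.17, and it was absent from the stricter list. No peak of replicate 2 overlapped it.

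Amhr2 was open at its promoter in both ovaries with closely similar values. The promoter peak covered the first start site, from 102445201 to 102445520 with a value of 1.61 in replicate 1, and from 102445181 to 102445520 with a value of 1.43 in replicate 2. The mean was 1.52 ± 0.12 (SD, n = 2). The lowest q-value there was 1.16e-05 in replicate 1 and 5.49e-07 in replicate 2, and each library had 5 footprints in the peak. Of the 4 start sites of its coding transcripts, 3 lie in this peak, from 102445367 to 102445448, and the fourth, at 102452159, had no peak within 500 bp.

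The highest peak of Amhr2 lay outside the gene, centred at -2667 bp from the start in replicate 1 and at -2677 bp in replicate 2. It had a value of 4.64 in replicate 1 (102442601 to 102442800) and 3.45 in replicate 2 (102442581 to 102442800), a mean of 4.04 ± 0.84 (SD, n = 2). Its lowest q-value was 1.89e-15 in replicate 1 and 3.90e-16 in replicate 2, and 10.9% of the peaks of replicate 1 and 7.94% of those of replicate 2 were higher. No annotated gene covers the centre of this site, and the neighbouring gene on that side, Sp1, ends 8962 bp before Amhr2 begins. The ratio of the upstream peak to the promoter peak of Amhr2 was at least 2.41 in each library. Among 3631 genes with both a promoter peak and a shared peak 0.5 to 10 kb upstream, 18.0% had the upstream one as the higher in both libraries, and 5.43% had a ratio as high as that of Amhr2.

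Inside Amhr2 the shared peaks were lower than its promoter peak in each library and lay between intron 3 and exon 6. The peak over the end of intron 3 and the start of exon 4 spanned 102446481 to 102446760 in both libraries, with a value of 1.37 in replicate 1 and 1.25 in replicate 2, a mean of 1.31 ± 0.08 (SD, n = 2). The peak around exon 5 had a value of 1.28 in replicate 1, where it ran on into exon 6 (102446981 to 102447460), and 0.923 in replicate 2 (102446927 to 102447160), a mean of 1.10 ± 0.25. Of all peaks of replicate 1, 31.9% were higher than the intron 3 peak and 33.7% higher than the exon 5 peak. In replicate 2 these shares were 25.5% and 34.8%. Replicate 2 alone had a peak over exon 2 (102445701 to 102446085) with a value of 0.772 and a peak of 76 bp at the end of exon 3 (102446381 to 102446456) with a value of 0.576. Both were absent from the stricter list, as was the shared exon 5 peak of replicate 2. In the remaining 7173 bp of the gene, which hold exons 7 to 11, no peak was called in either library. Replicate 1 had 40 bases with a listed q-value there, none below 0.0278, and replicate 2 had 0.

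**Figure D1:**
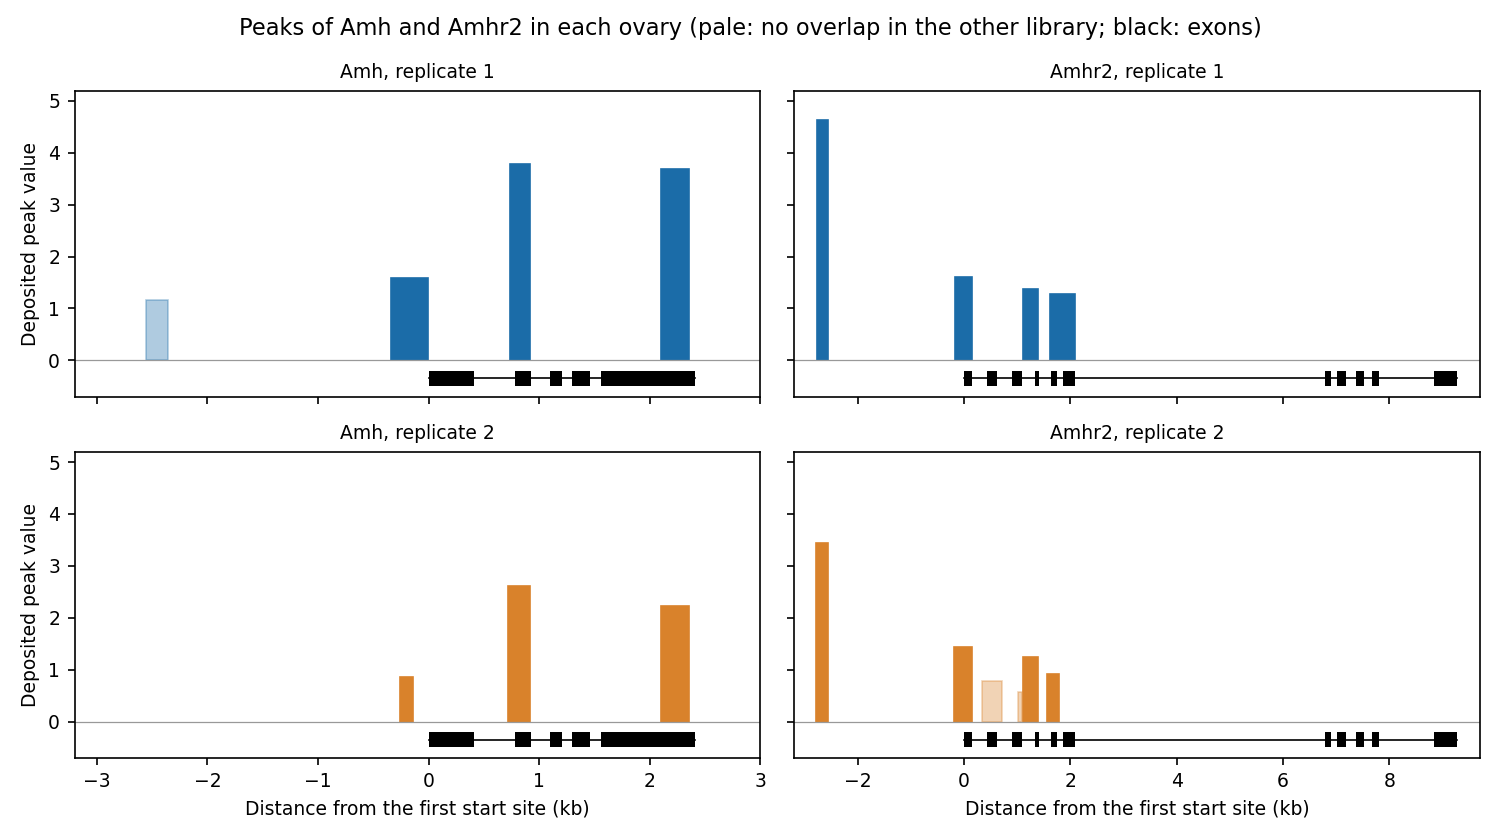
Peaks of Amh (left) and Amhr2 (right) in replicate 1 (top) and replicate 2 (bottom). The x axis is the distance from the first start site in kb, bar height is the deposited peak value, bar width is the peak width, pale bars had no overlap in the other library, and black boxes are exons. The tallest bars stand inside Amh, up to 3.78, and upstream of Amhr2, up to 4.64, while both promoter peaks stay at or under 1.61.

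Ordered by mean value, the 7 shared sites ran from the Amhr2 upstream site (4.04) through Amh exon 2 (3.19), Amh exon 5 (2.95), the Amhr2 promoter (1.52), Amhr2 intron 3 (1.31) and the Amh promoter (1.22) to Amhr2 exon 5 (1.10). The gap between exon 5 of Amh and the Amhr2 promoter was wider than the SD of either site. The gap between exon 2 and exon 5 of Amh was smaller than the SD of either site, and the gaps of the Amh promoter to its neighbours in the order were smaller than its own SD of 0.52. Within each library the first 4 places were the same, and the Amh promoter came in the fifth place in replicate 1 and the last in replicate 2.

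The longest footprints of each gene lay at the same place in both ovaries. At the Amhr2 upstream site a footprint of 47 bp in replicate 1 (102442670 to 102442716) and one of 44 bp in replicate 2 (102442672 to 102442715) covered nearly the same bases. At Amh exon 2 a footprint of 42 bp lay at 80806048 to 80806089 in replicate 1 and at 80806045 to 80806086 in replicate 2. The median footprint of a whole library was 10 bp wide in replicate 1 and 9 bp in replicate 2, and 1.40% and 1.26% of footprints reached 40 bp. A footprint of at least 40 bp in both libraries was present in 2 of the 7 shared sites of Amh and Amhr2, against 2.78% of the 79447 one-to-one shared peaks. The limit of 40 bp was not planned and lies just under these footprints of 42 to 47 bp. Both sites are also high, with 13.3% (Amhr2 upstream) and 17.0% (Amh exon 2) of shared pairs higher by mean value. The 2.78% is thus no independent measure of how rare such sites are.

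The remaining sites held shorter protected stretches. At Amh exon 5 the longest footprint was 16 bp in replicate 1 and 20 bp in replicate 2, and both lay at the same place, 80807379 to 80807394 and 80807377 to 80807396. The bases footprinted in both libraries numbered 70 at the Amhr2 upstream site, 56 at Amh exon 2, 26 at the Amhr2 promoter, 23 at Amh exon 5, 18 and 12 at the sites in Amhr2, and 0 at the Amh promoter. In all, the peaks of Amh held 15 footprints in replicate 1 and 9 in replicate 2, and 6 of those 15 overlapped one of replicate 2 inside a shared peak. The peaks of Amhr2 held 17 footprints in replicate 1 and 18 in replicate 2, and 10 of those 17 overlapped one of replicate 2. A protected stretch names no protein.

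**Figure D2:**
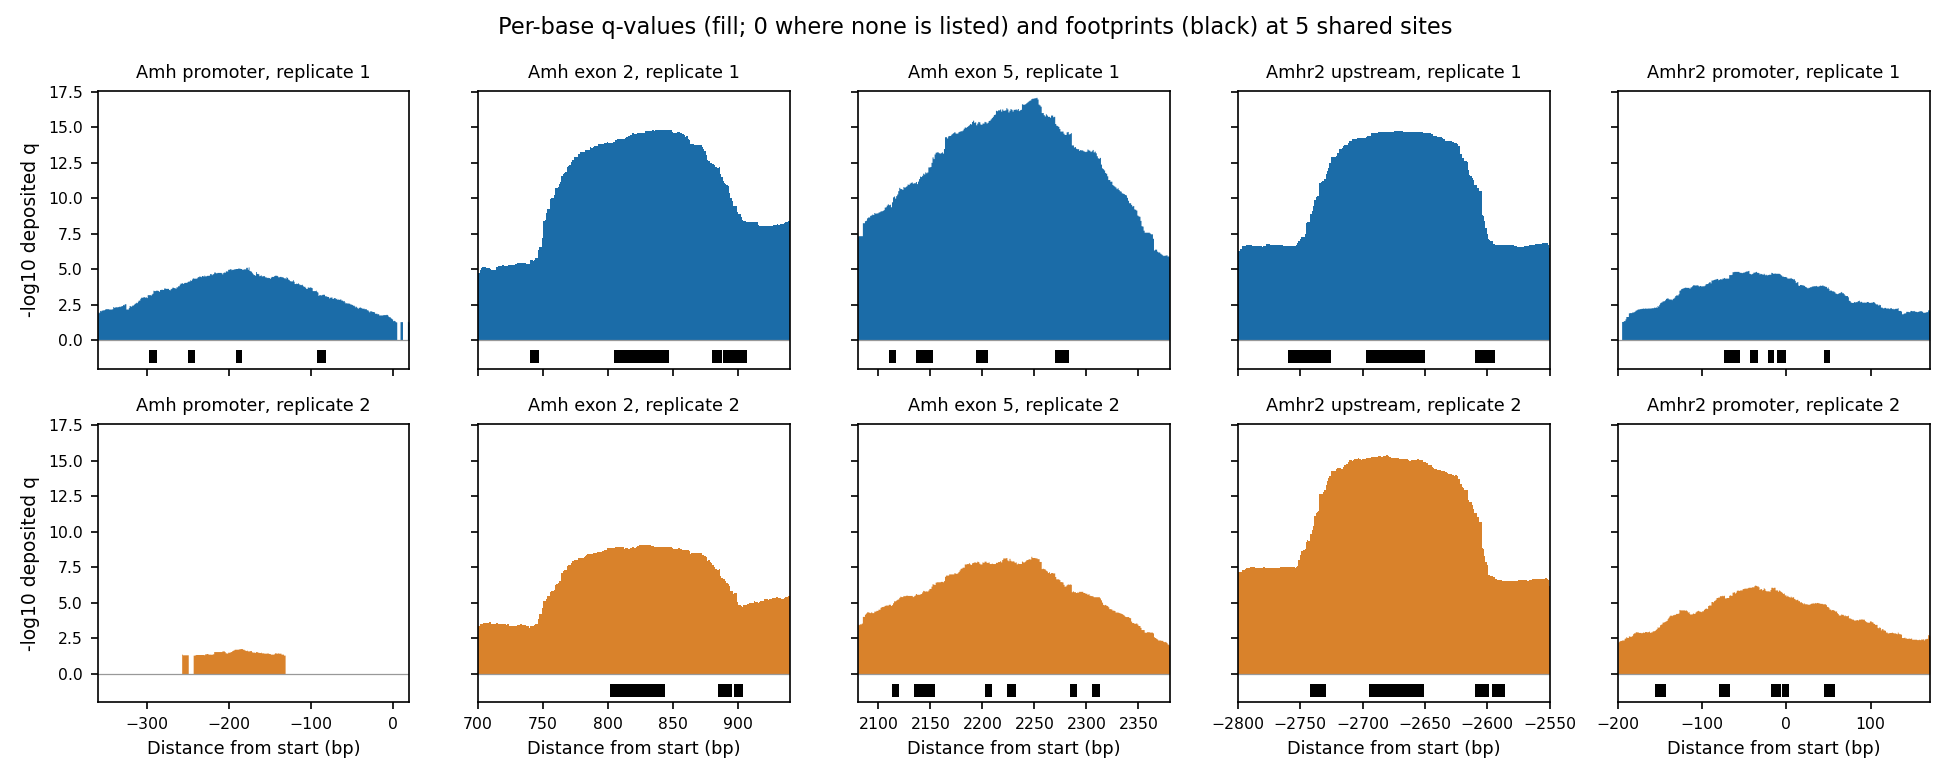
Per-base q-values and footprints at 5 shared sites of Amh and Amhr2, replicate 1 in the top row and replicate 2 in the bottom row. The x axis is the distance from the start site in bp, the fill is −log10 of the deposited q-value (0 where none is listed), and black blocks are footprints. Long footprints of 42 to 47 bp sit at the same place in both libraries at Amh exon 2 and upstream of Amhr2, and the Amh promoter in replicate 2 has no footprint.

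Short motifs of factors linked to these genes were looked for on both strands, in the 300 bp RefSeq window around the Amhr2 start (1 of the 2 genes had an entry) and in 200 bp at the centre of the shared sites other than the Amh promoter. The NR5A element CAAGGTCA, bound by the steroidogenic nuclear receptors NR5A1 and NR5A2, was present in the Amhr2 window at 102445135 to 102445142, as it is in 1.56% of 32851 windows in the same table. It can be read in the promoter sequence above as ccaaggtcag, and it lay outside the called peak of both libraries. The window also held a GATA match (TTATCA, 102445168 to 102445173), as 29.8% of windows hold either AGATAA or AGATAG or TGATAA or TGATAG, and an E-box CAGCTG at 102445183 to 102445188, as 16.3% do. The GATA match also lay outside the called peak of both libraries, and the E-box lay inside that of replicate 2 alone. Neither had a base footprinted in both. The GC box GGGCGG lay at 102445350 to 102445355, just before the start and inside the peak, with 2 of its bases footprinted in both libraries, and 35.7% of windows hold it. The nuclear receptor core AGGTCA matched once, inside the NR5A element, and 16.3% of windows hold it. No match of SOX (ACAAT or ACAAAG), forkhead (TAAACA), AP-1 (TGANTCA), CRE (TGACGTCA), the core promoter element TATAAA, WT1 and EGR (GCGGGGGCG) or SMAD (GTCTAGAC or GGCGCC) motifs was in this window.

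At the Amhr2 upstream site 3 motif matches lay within the long shared footprint. AGGTCA was read on the minus strand at 102442680 to 102442685, a motif that 14.4% of the 79446 windows at shared peaks hold. It was followed directly by a match of CCACNAG on the minus strand (102442686 to 102442692), a core of the motif of the insulator protein CTCF that was added to the search after the sequence had been seen and is present in 18.3% of windows. GGCGCC lay at the end of the footprint (102442710 to 102442715), as in 9.40% of windows. In Amh exon 2 AGGTCA was present at 80806129 to 80806134, with 5 of its 6 bases footprinted in both libraries. In Amh exon 5 GGCGCC was present at 80807433 to 80807438, with 0 of its bases footprinted in both. The Amhr2 window held no match of CCACNAG. The centre of the Amhr2 promoter peak held a further E-box after the start, at 102445453 to 102445458, as 18.4% of windows at shared peaks do. None of its bases were footprinted in both libraries. The Amhr2 exon 5 site held no match of any motif searched. The centre of the Amhr2 intron 3 site held TGATAA at 102446602 to 102446607 and the GC box on the minus strand at 102446546 to 102446551. A GATA match is present in 19.1% of windows and the GC box in 23.6%, and 0 bases of either were footprinted in both libraries. The site also holds AGGTCA near its upstream edge, outside the part searched. At the Amhr2 upstream site the nuclear receptor core and the CTCF core abut and form an unbroken run on the same strand. Their shares were counted separately and do not say how rare that run is. Windows holding the whole run were not counted, and whether it is part of a longer element was not tested. A match describes the letters and not a bound site.

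Both promoters ranked low among open promoters, and the cell type marker lists given below also had medians under that of all open promoters. Amh and Amhr2 both had a promoter peak in both libraries, as did 14332 of the 21853 protein-coding genes, which is 65.6%. Their mean promoter values of 1.22 and 1.52 stand beside a median of 5.17 over those 14332 genes, of which 86.5% had a higher value than Amh and 82.8% a higher one than Amhr2. The place was similar in each library. For Amh 82.1% of open promoters were higher in replicate 1 and 86.9% in replicate 2, and for Amhr2 81.9% in replicate 1 and 77.8% in replicate 2. The genes whose pair of promoter values (log2, 2 libraries) lay nearest to the pair of Amh were Gdf10, Slc47a1 and Fgfr4, at Euclidean distances of 0.013, 0.026 and 0.032. For Amhr2 they were Alox12, Zc4h2 and Csdc2, at 0.0088, 0.026 and 0.037. This likeness rests on 2 values a gene.

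**Figure D3:**
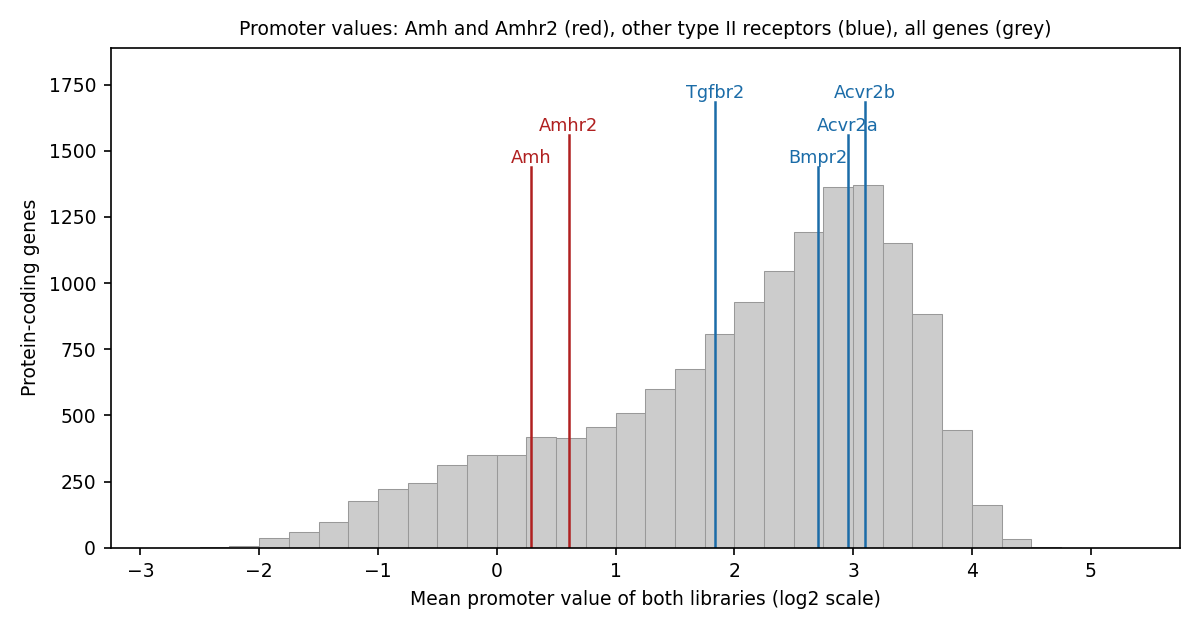
Distribution of the mean promoter value of both libraries (log2 scale, x axis) over the 14332 protein-coding genes with a promoter peak in both (y axis, number of genes). Red lines mark Amh at 1.22 and Amhr2 at 1.52, and blue lines the other type II receptors of the family, from Tgfbr2 at 3.58 to Acvr2b at 8.58.

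Amhr2 had a lower promoter value than each of the other type II receptors examined. The 4 others were open at the promoter in both libraries, as were 65.6% of all protein-coding genes. Their median of mean values was 7.14, beside 5.17 for all open promoters. Acvr2b, an activin receptor, had a value of 12.5 in replicate 1 and 4.63 in replicate 2, a mean of 8.58 ± 5.58 (SD, n = 2). Acvr2a, its relative, had 10.6 in replicate 1 and 4.94 in replicate 2. Bmpr2, the receptor of bone morphogenetic proteins, had 9.52 in replicate 1 and 3.51 in replicate 2. Tgfbr2, the receptor of TGF-beta itself, had 4.44 in replicate 1 and 2.72 in replicate 2. In each library the Amhr2 value, 1.61 and 1.43, lay below the lowest of these. Amhr2 had 4 shared peaks, against 21 for Tgfbr2, 12 for Acvr2a and 8 each for Acvr2b and Bmpr2. These counts take in the gene body and its surroundings and were not adjusted for gene length or for the distance to neighbours.

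The list of AMH signalling genes held the type I receptors, the receptor-regulated and common SMADs, the inhibitory Smad6 and Smad7, the Id targets, and the proteases Furin and Pcsk5, which process ligands of the family. A promoter peak was called in each library at 14 of these 14 genes, beside 65.6% of all protein-coding genes. Their median of mean promoter values was 5.89, beside 5.17 for all open promoters. The highest were Smad4, the common partner of receptor-regulated SMADs, at 11.6 ± 6.76 (SD, n = 2), the targets Id2 at 9.11 ± 3.54 and Id3 at 8.95 ± 4.46, which encode inhibitors of basic helix-loop-helix factors, and Smad1, a SMAD phosphorylated by BMP-branch receptors, at 8.24 ± 3.08. The type I receptors had 7.34 ± 4.76 at Bmpr1a, 4.62 ± 2.00 at Bmpr1b and 4.29 ± 2.29 at Acvr1, all above Amhr2 in each library. These 3 receptors were named after their values were seen.

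Among ligands of the TGF-beta family other than Amh, 11 of 14 had a promoter peak in both libraries, which is 78.6%, against 65.6% of all protein-coding genes. The median of mean promoter values was 3.10 over those 11, beside 5.17 for all open promoters, and Nodal was open in replicate 1 alone. The highest were Tgfb3 at 7.81 ± 3.32, Inhba, which encodes the beta A chain of activin A, at 4.53 ± 1.34, Inha, the inhibin alpha subunit, at 3.63 ± 1.31, and Bmp6 at 3.42 ± 1.34 (SD, n = 2). Amh, at 1.22, lay below that median and above Bmp4 and Gdf5, which had 0.698 ± 0.256 and 0.467 ± 0.015 and were named after their values were seen. Neither library had a promoter peak at Bmp15 or Gdf9, growth factors of the oocyte.

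The 15 regulators on the list, genes known to act on Amh or Amhr2 in gonads, were all open at the promoter in both libraries, against 65.6% of all protein-coding genes. Their median of mean promoter values was 2.92, beside 5.17 for all open promoters. The highest were Sp1, a general activator that binds GC boxes, at 9.37 ± 3.81, Gata4, a zinc finger factor of gonadal somatic cells, at 5.67 ± 2.44, Foxl2, the forkhead factor of granulosa cells, at 4.66 ± 2.09, and Wt1, a factor of the early gonad, at 4.43 ± 2.61 (SD, n = 2). Fshr at 0.561 ± 0.100 and Nr0b1 at 0.571 ± 0.234 lay below Amh and Amhr2. They were named after their values were seen. Sp1 is also the upstream neighbour of Amhr2.

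**Figure D4:**
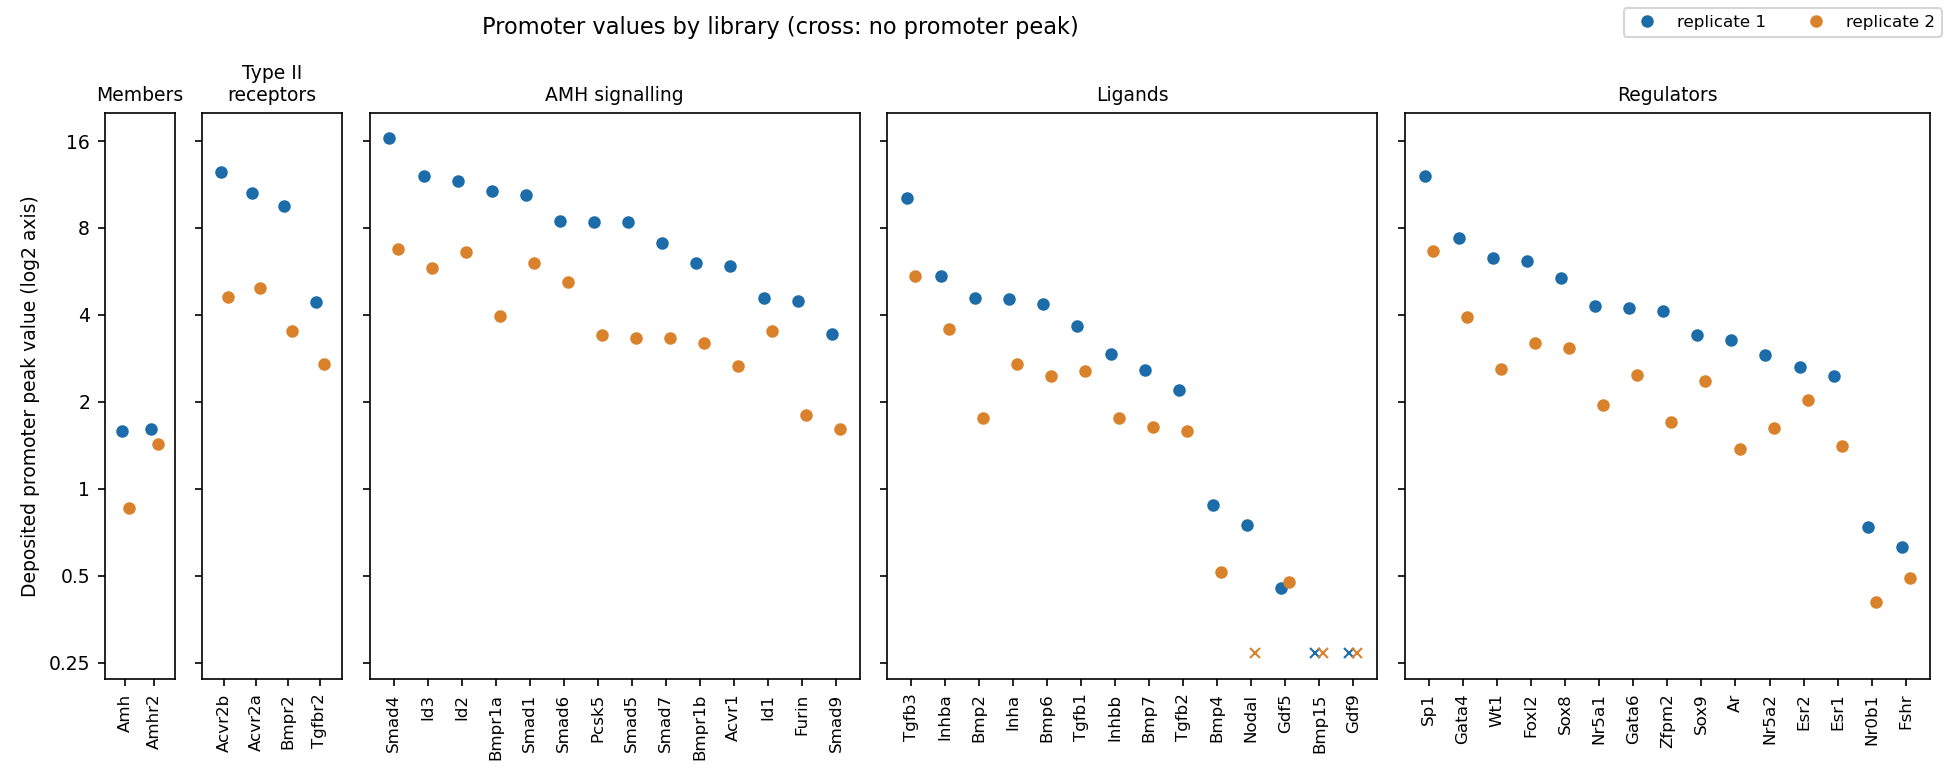
Promoter values (log2 axis) of Amh and Amhr2, of the other type II receptors, of signalling genes, ligands and regulators, for replicate 1 (blue) and replicate 2 (orange), with crosses for genes without a promoter peak. In each library Amh and Amhr2, between 0.857 and 1.61, lie below all type II receptors and all signalling genes shown.

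Most genes around both loci were open at the promoter, as were 65.6% of all protein-coding genes. Those that were open had higher values than Amh and Amhr2. Upstream of Amh, Sf3a2, a splicing factor subunit, and Plekhj1 shared a promoter peak of 10.2 in replicate 1 and 5.56 in replicate 2. Sf3a2 ends 318 bp before Amh begins, and the Amh promoter peak lay in that gap, reaching into the last bases of Sf3a2 in replicate 1. Dot1l, a histone methyltransferase, had a mean of 13.2 ± 8.74, and Oaz1, ornithine decarboxylase antizyme, 10.1 ± 3.96 (SD, n = 2). Jsrp1, the neighbour after Amh, and Lingo3 had no promoter peak. Around Amhr2 the values were 8.63 ± 3.93 at Aaas, 9.37 ± 3.81 at Sp1, 4.76 ± 0.67 at Prr13, 9.35 ± 5.49 at Pcbp2 and 4.82 ± 2.24 at Map3k12, while Sp7, an osteoblast factor, had none. In each library the Amh and Amhr2 promoters were lower than every open promoter among these 12 neighbours.

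Replicate 1 had the higher value at all 7 shared sites of Amh and Amhr2, as at most shared peaks. The log2 ratio of replicate 1 over replicate 2 was 0.89 at the Amh promoter, 0.53 at exon 2 and 0.73 at exon 5. It was 0.43 at the Amhr2 upstream site, 0.17 at the promoter, 0.13 at intron 3 and 0.48 at exon 5. Over all 79447 pairs the median of this log2 ratio was 0.41 with an SD of 0.49, and over 19263 promoter pairs the median was 0.78. Against the twentieth of shared pairs of similar mean value, each of the 7 ratios lay between the 5th and 95th percentiles. The Amh promoter was nearest to the upper end, with 9.41% of such pairs above it, and the Amhr2 upstream site nearest to the lower end, with 86.5% above it. The place of the upstream site depended on the baseline. Against the tenth of shared pairs of similar GC content its ratio lay above the median of -0.027. The Amh promoter also lay above its median of 0.49 by GC content, and every other site lay below its own. With 1 library an animal, a difference between animals and one between library preparations cannot be told apart.

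**Figure D5:**
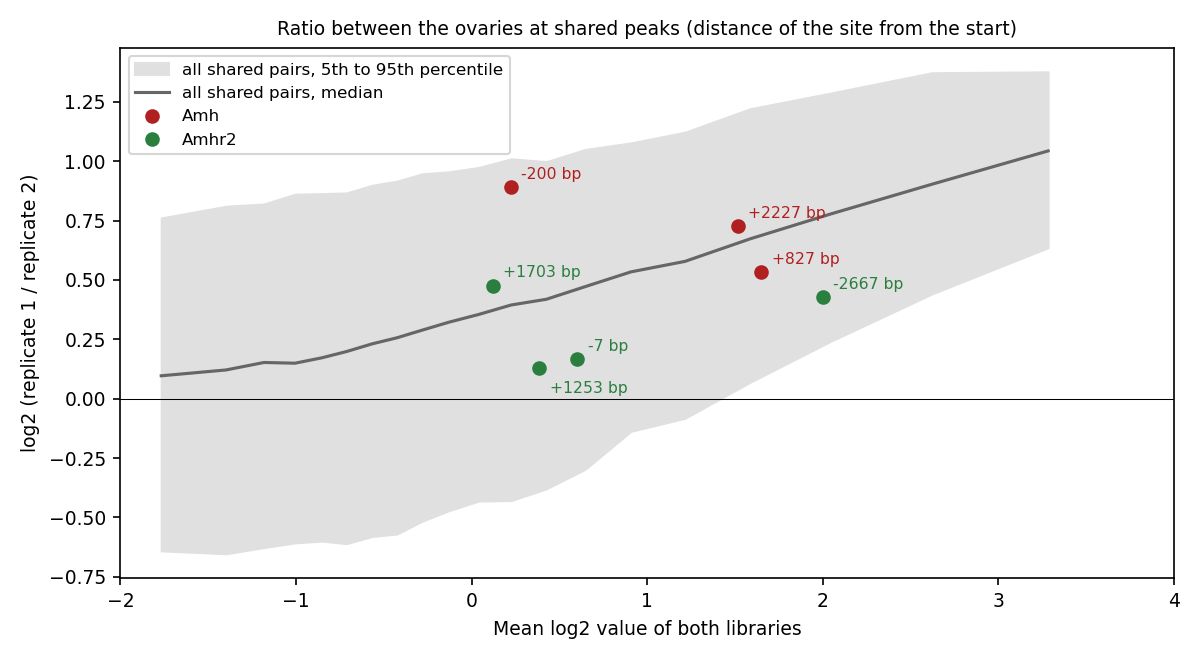
Log2 ratio of replicate 1 over replicate 2 (y axis) against mean log2 value (x axis) at the 3 shared sites of Amh (red) and the 4 of Amhr2 (green), labelled by distance from the start site. The line is the median and the band the 5th to 95th percentile of all shared pairs. The 7 sites lie within the band, the Amh promoter (0.89) high in it and the Amhr2 promoter (0.17) below the median.

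The libraries held 109169 peaks in replicate 1 and 114462 in replicate 2, with median values of 0.808 and 0.648, so each Amh and Amhr2 promoter peak was above the median peak of its library. The ovary label was set against marker genes. Promoters were open in both libraries for 5 of 6 granulosa markers (not Cyp19a1), 4 of 4 theca and steroidogenic markers, 2 of 2 stromal, 3 of 4 surface epithelium and 2 of 2 oviduct markers, beside 65.6% of all protein-coding genes, so lists this short say little about which cells were present. None of the 4 oocyte markers (Gdf9, Bmp15, Zp3, Ddx4) was open in either. Low promoter values were not particular to Amh and Amhr2. The median of mean values over open markers was 1.40 for surface epithelium, 1.75 for theca and steroidogenic and 2.33 for granulosa markers. It was 2.99 for stromal and 4.99 for oviduct markers, beside 5.17 for all open promoters. Of 4 markers of Sertoli cells, which also make Amh, 3 were open and Rhox5 was not. The values were 2.88 ± 0.75 at Sox9, 1.85 ± 0.62 at Dhh and 0.480 ± 0.114 at Dmrt1 (SD, n = 2). In which cells the sites of Amh and Amhr2 were open was not tested. The reads of both parental genomes of the hybrid were not separated in these files.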

How the data were processed

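DNase-seq intervals of 2 ovary libraries on mm10 were used, as deposited. They were called per library, per the descriptions deposited with the files. For the aligner, the callers and their settings, the sources used here name nothing. The authors deposited 2 peak lists per library, and the longer was used. The signal value of each peak is the authors' deposited value, of unknown scaling. It was a whole multiple of 1 step in 100% of peaks (within 0.05 of a step), with a step of 0.00651 in replicate 1 and 0.00654 in replicate 2. Read depth as such is unknown. The deposited q-values are listed per base below 0.05 only. The deposited footprint score is constant and was not used.

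Start sites were those of protein-coding GENCODE vM21 transcripts. Where several promoter peaks existed, the highest value was taken. Shared peaks overlapped by at least 1 base, and one-to-one pairs had the longest overlap both ways. The counting functions recovered planted overlaps on simulated data. Python 3.11.15, numpy 2.4.6 and matplotlib 3.10.9 were used. The genes, lists and motifs were chosen with earlier results of these data known. The comparisons of body and upstream peaks with the promoter peak, and the limits of 3000 bp and 40 bp, were not in the plan. Named were both genes, all type II receptors, the 4 highest genes and those without a promoter peak of each other list, all neighbours, and the 3 genes of nearest promoter values. Alternatives were the stricter list, other promoter rules, overlap rules and baselines, and single libraries.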

Additional observations from a re-analysis of the deposited data

How the results depend on the processing

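Of 47 alternative values, 42 stayed within their limit and 5 did not. For counts the limit was 1.5 times the main count, and for promoter values the SD between libraries. For library ratios it was the SD of 0.49 over all shared pairs. With n = 2, a single library always lies within the SD of the mean, so such promoter values could not move. The limit for ratios was wide. With promoter pairs as baseline, the Amh promoter log2 ratio over it went from 0.479 to 0.106 and that of Amhr2 from -0.245 to -0.618. With a promoter of 1000 bp, the Amh promoter value became 3.19, since the exon 2 peak then counts as promoter. With the promoter peaks summed, that of Amhr2 became 1.91, since the exon 2 peak of replicate 2 was added. With single libraries the Amh promoter value ranged from 0.857 to 1.59 and that of Amhr2 from 1.43 to 1.61. The footprints counted in both libraries were 6 for Amh and 10 for Amhr2, and with single libraries, where none has to be matched, they ranged from 9 to 15 and from 17 to 18. In the stricter list the Amh promoter peak was present in replicate 1 alone, and the shared peaks numbered 2 for Amh and 3 for Amhr2, in place of 3 and 4. The counts were again 2 and 3 when 50% of both peaks had to overlap. Counting the starts of every transcript type, an alternative chosen after seeing the data, moved the promoter value of neither gene and gave 14569 open promoters in place of 14332. No paired analysis was possible because there is 1 group. The depth of the libraries is unknown.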
